A study of Mus musculus with 4 samples.

Results

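Cartilage spots of the day 7 section were the capture spots in which Col2a1, Acan and Col9a1, which encode the main collagen, the main proteoglycan and a fibril-associated collagen of cartilage, took the largest share of the RNA. The score of a spot was its summed UMIs (unique molecular identifiers, 1 per captured RNA molecule) of these 3 genes per 10,000 UMIs of the spot, and members were the spots at or above the 91st percentile among day 7 spots with at least 2000 UMIs. This gave 266 cartilage spots of 2948 kept day 7 spots and of 10835 spots deposited for the series, and left 2682 spots as the rest of the section. The study used Visium arrays, on which each spot captures RNA from a small area that can hold several cells, and the tissue was tibial muscle of Nse-Bmp4 mice, C57BL/6, aged 6 to 8 weeks. One section was of muscle without injury (day 0), and the others were of muscle taken 1, 3 and 7 days after cardiotoxin, a snake toxin that destroys muscle fibres. All 4 groups, day 0 included, carried the Bmp4 transgene, a Bmp4 cDNA driven by the rat neuron-specific enolase promoter, so no group lacked it. The labels state that 3 tibial muscles were mixed per group, and how these relate to the 1 section deposited per day was not settled. Since each day had a single section, the spread between animals is unknown, no p-value was computed, and every interval given is a 95% counting interval over the reads of 1 section.

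Heterotopic ossification, the formation of bone inside soft tissue, usually passes through cartilage. Mesenchymal cells condense, switch on the transcription factor Sox9 and lay down a matrix of type II, IX and XI collagen with the sulfated proteoglycan aggrecan. Maturing chondrocytes enlarge, produce Indian hedgehog and then type X collagen, begin to mineralize their matrix and are replaced by bone. Parathyroid hormone-related protein, acting on its receptor Pth1r, delays the start of this maturation.

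The score had no gap at the threshold. The threshold lay at 24.7 marker UMIs per 10,000, the 2 members just inside it had 24.77 and 24.82, and the 2 spots just outside had 24.53 and 24.29. The median was 71.8 in the cartilage spots and 2.82 over all kept spots, the highest value was 320, and 405 spots (13.7%) had no marker UMI. A cartilage spot held between 6 and 453 marker UMIs, with a median of 80, and 265 of the 266 held all 3 markers. The cartilage spots held 8.33% of the UMIs of the section and 60.7% of its marker UMIs, so the markers were also spread thinly outside them. At the other times none of 2090, 2154 and 3020 kept spots (days 0, 1 and 3) reached the threshold, and the highest scores there were 1.95, 3.48 and 1.78. At least 1 marker UMI was found in 0.718%, 1.02% and 1.03% of those spots and in 86.3% of the day 7 spots. Col10a1, encoding type X collagen, had 0, 0, 19 and 440 UMIs at days 0, 1, 3 and 7, and Ihh, encoding Indian hedgehog, had 6, 0, 7 and 504. The section and its day cannot be told apart.

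**Figure D1:**
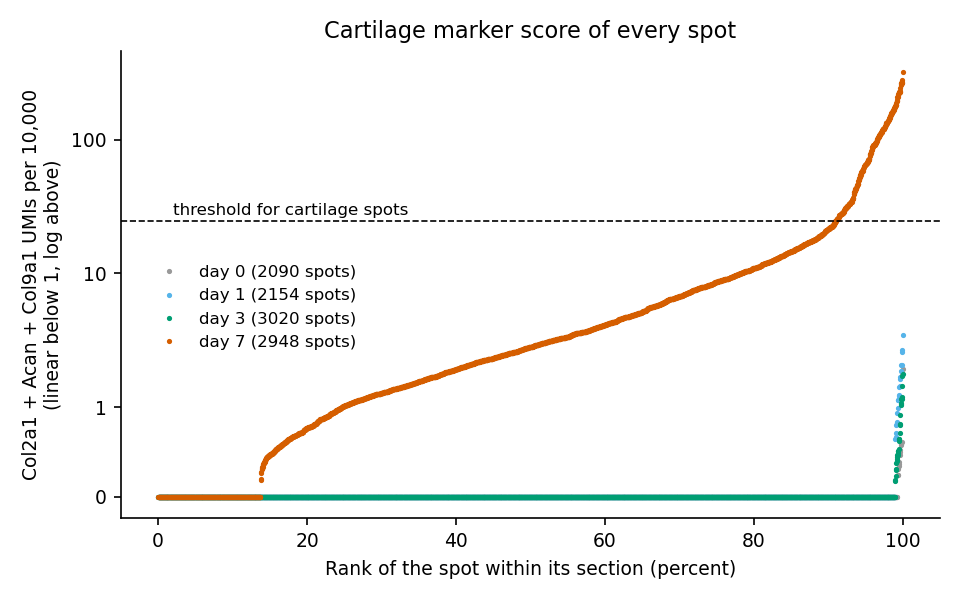
Marker score of every kept spot (vertical axis, marker UMIs per 10,000, linear below 1 and logarithmic above) against the rank of the spot within its section (horizontal axis, percent), 1 point per spot, for the day 0, 1, 3 and 7 sections. The day 7 curve climbs without a step through the threshold of 24.7 (dashed line) to 320, and no spot of the other days exceeds 3.48.

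The cartilage label fitted genes that the score did not use. The summed UMIs of 5 other cartilage collagen genes (Col9a2, Col9a3, Col11a1, Col11a2 and Col27a1) ranged from 3.01 to 192 per 10,000 in the cartilage spots with a median of 47.6, and from 0 to 39.9 in the rest with a median of 1.93. The label did not stand for cartilage alone. Of the 266 cartilage spots, 254 also reached the bone-gene score that marked the highest 9% of the rest (summed bone genes including Ibsp, Sp7, Alpl, Runx2 and Dmp1, at least 4.74 per 10,000), and Col1a1, the type I collagen gene of bone, tendon and fibrous tissue, ranged from 86.7 to 693 UMIs per 10,000 in them with a median of 415, against 1.21 to 642 with a median of 39.8 in the rest. The corresponding tendon-gene score, which 9% of the rest reached by construction, was reached by 22 (8.27%). The summed tendon list had a median of 8.69 UMIs per 10,000 in the cartilage spots (highest 40.0) and 3.99 in the rest (highest 92.0). No cartilage spot was among the 266 spots richest in adult myofibre RNA.

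Other tissue in the spots moved with the score. Adult myofibre genes took 5.53% of UMIs in cartilage spots (1.34% to 21.1% by spot, median 5.69%) and 17.3% in the rest (1.25% to 32.9%, median 18.9%), mitochondrial genes took 3.46% and 12.4%, and the spots had a median of 10781.5 and 12512 UMIs and of 3850 and 3192 genes. A lower muscle share raises the CPM (UMIs of the gene per 1000000 UMIs of the group) of every other gene, so the comparisons with the rest, with bone-gene spots and with tendon-gene spots, and the one between cartilage spots with and without Col10a1, were also made with TMM and DESeq2 scaling factors, and the comparison with the rest was also made against the 1341 rest spots with the lowest myofibre share (13.4% of UMIs). In the comparison with the rest, TMM factors moved all log2 ratios by -0.46, and the median of all genes from 0.39 to -0.07. The shift was -0.199 against bone-gene spots, -0.133 against tendon-gene spots and -0.046 between cartilage spots with and without Col10a1. In a spot, fewer cells of a type and less RNA per cell cannot be told apart. Day 7 shared between 1539 and 2311 spot barcodes with each other section, since these arrays carry a common barcode set.

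A gene was called higher or lower where its CPM ratio was at least 2 or at most 0.5, its interval excluded 1 and both groups together held at least 50 UMIs. Between cartilage spots and the rest, 2795 of 13078 genes were called higher (21.4%) and 971 lower (7.42%). These shares are the background for the gene groups that follow, and since the spots were chosen on cartilage genes of the same spots, the values are a description. With TMM factors the split was 1282 higher and 1963 lower, with DESeq2 factors 1282 and 1968, and against the muscle-poor rest 1572 higher (12.5%) and 983 lower (7.82%) of 12577, of which 1571 and 801 were also called in the main comparison.

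Cartilage matrix led the list. Col9a3, a chain of type IX collagen that decorates type II fibrils, ranged from 0 to 54.3 UMIs per 10,000 in the cartilage spots with a median of 9.49, against 0 to 13.2 with a median of 0 in the rest. The ranges overlapped, and the summed level was 1196 against 64.3 CPM, a ratio of 18.6 (17.7 to 19.6). All 5 cartilage collagen genes outside the score were called higher, with ratios of 13.3 for Col11a1, 14.2 for Col27a1, 14.6 for Col11a2, 15.1 for Col9a2 and 18.6 for Col9a3, and all 5 kept the call with TMM factors. Col10a1, the collagen of hypertrophic cartilage, had the highest ratio of the genes with at least 50 CPM, at 81.5 against 4.11 CPM and a ratio of 19.8 (16.3 to 24.3).

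Of 17 tested genes of the cartilage matrix and its assembly, 11 were called higher and 1 lower (11 and 3 with TMM factors). Hapln1, the link protein that fastens aggrecan to hyaluronan, had 0 to 29 UMIs per 10,000 in the cartilage spots with a median of 3.96, against 0 to 9.45 with a median of 0, and a ratio of 16.0. Comp, a pentameric protein that binds collagen, had 0 to 89.7 with a median of 20.1, against 0 to 20.1 with a median of 1.14, and a ratio of 10.5. The matrilins, adaptor proteins between collagen and proteoglycan, had ratios of 23.8 (16.5 to 34.8) for Matn1 from 95 and 44 UMIs, 14.9 for Matn3, 12.1 for Matn4 and 3.10 for Matn2. Cnmd (chondromodulin, which keeps vessels out of cartilage) had 16.6 and Snorc, a small membrane proteoglycan of cartilage, 14.5. Outside this list, Slc13a5, a citrate transporter, had 16.0, Gramd2 15.4 and Dqx1 13.7. Not all genes of the list were higher. Prg4, the lubricant of joint surfaces, had 17.3 against 32.7 CPM and a ratio of 0.528, which was not called, Chad had a ratio of 1.37, which was not called either, and Cilp2 was called lower at 0.406.

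The enzymes that make sulfated glycosaminoglycan chains were higher almost throughout, with 12 of 13 tested genes called higher and none lower (11 and none with TMM factors). Slc26a2, the sulfate transporter, had a ratio of 11.1, Xylt1, which starts the chains, 10.9, Chst11, a chondroitin sulfotransferase, 9.74, and Papss2, which makes the sulfate donor, 7.98. B3gat3 had 1.63 and was not called. The secretory pathway and collagen folding list followed, with 31 of 35 called higher and none lower (28 and none with TMM factors). Plod2, a lysyl hydroxylase of collagen, had 9.08, Serpinh1, the collagen chaperone, 5.20, and Creb3l1, a factor that drives secretory genes, 5.16. The stress factor Ddit3 had 1.03 and Xbp1 1.75, neither of which was called.

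Among chondrogenic transcription factors 10 of 15 tested were called higher and none lower (9 and none with TMM factors). Sox9, the factor that starts cartilage, had 0 to 15.3 UMIs per 10,000 with a median of 3.92 in cartilage spots, against 0 to 9.32 with a median of 0, and had UMIs in 92.9% of cartilage spots and 34.9% of the rest. Its level was 455 against 50.9 CPM, a ratio of 8.94 (8.36 to 9.56). Its partner Sox5 had a ratio of 8.02 (5.48 to 11.7) from 51 and 70 UMIs. Sox6, the other partner, was not called, with 38.6 against 41.0 CPM and a ratio of 0.942 (0.783 to 1.12). The ratio was 12.4 for Dlx5, 5.74 for Runx3, 3.03 for Runx1 and 0.767 for Mef2c, which was not called.

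Genes of osteoblasts and of mineralization were high in the same spots. Ibsp, encoding bone sialoprotein, ranged from 0 to 102 UMIs per 10,000 with a median of 10.1 in cartilage spots and from 0 to 12.4 with a median of 0 in the rest, and its ratio was 14.3 (13.7 to 14.9). Sp7, the osteoblast factor osterix, ranged from 0 to 10.0 with a median of 2.12, against 0 to 4.99 with a median of 0, and had a ratio of 10.9. Of 11 tested osteoblast genes 10 were called higher and 1 lower (9 and 1 with TMM factors), among them Runx2 (7.09), Alpl, the phosphatase that frees phosphate for mineral (7.95), and Tnn, a tenascin of bone surfaces (7.17). The genes of late osteoblasts and osteocytes were nearly absent, with 0 UMIs of Bglap in cartilage spots and 2 in the rest, 0 and 0 of Bglap2, 3 and 15 of Dmp1, 0 and 4 of Sost and 0 and 4 of Mepe. A count of 0 in the 3473308 UMIs of the cartilage spots allows up to 3 UMIs.

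The hypertrophy and mineralization list was mixed, with 11 of 22 tested genes called higher and none lower (8 and 2 with TMM factors). Smpd3, a sphingomyelinase needed for mineralizing cartilage, had a ratio of 15.6, Panx3, a channel of prehypertrophic chondrocytes and osteoblasts, 13.1, and Enpp1, which makes the mineral inhibitor pyrophosphate, 4.5. Mmp13, the collagenase of the last hypertrophic cells, had only 34 UMIs in cartilage spots and a ratio of 2.19 (1.47 to 3.18). Spp1 (osteopontin) had 0.831, Vegfa, the vessel growth factor of hypertrophic cartilage, 0.685 and Mgp, the mineral inhibitor, 1.30, none of which was called. Spp1 nevertheless had UMIs in more of the cartilage spots, 57.5% (0 to 9.89 per 10,000, median 0.623) against 27.6% of the rest (0 to 69.6, median 0), and thinned to 2000 UMIs a spot the shares were 16.3% (12.0% to 21.2%) and 6.67% (5.76% to 7.69%), beside 3.68% in the myofibre-rich spots. Phospho1, a phosphatase that starts mineral, had 1 and 3 UMIs.

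**Figure D2:**
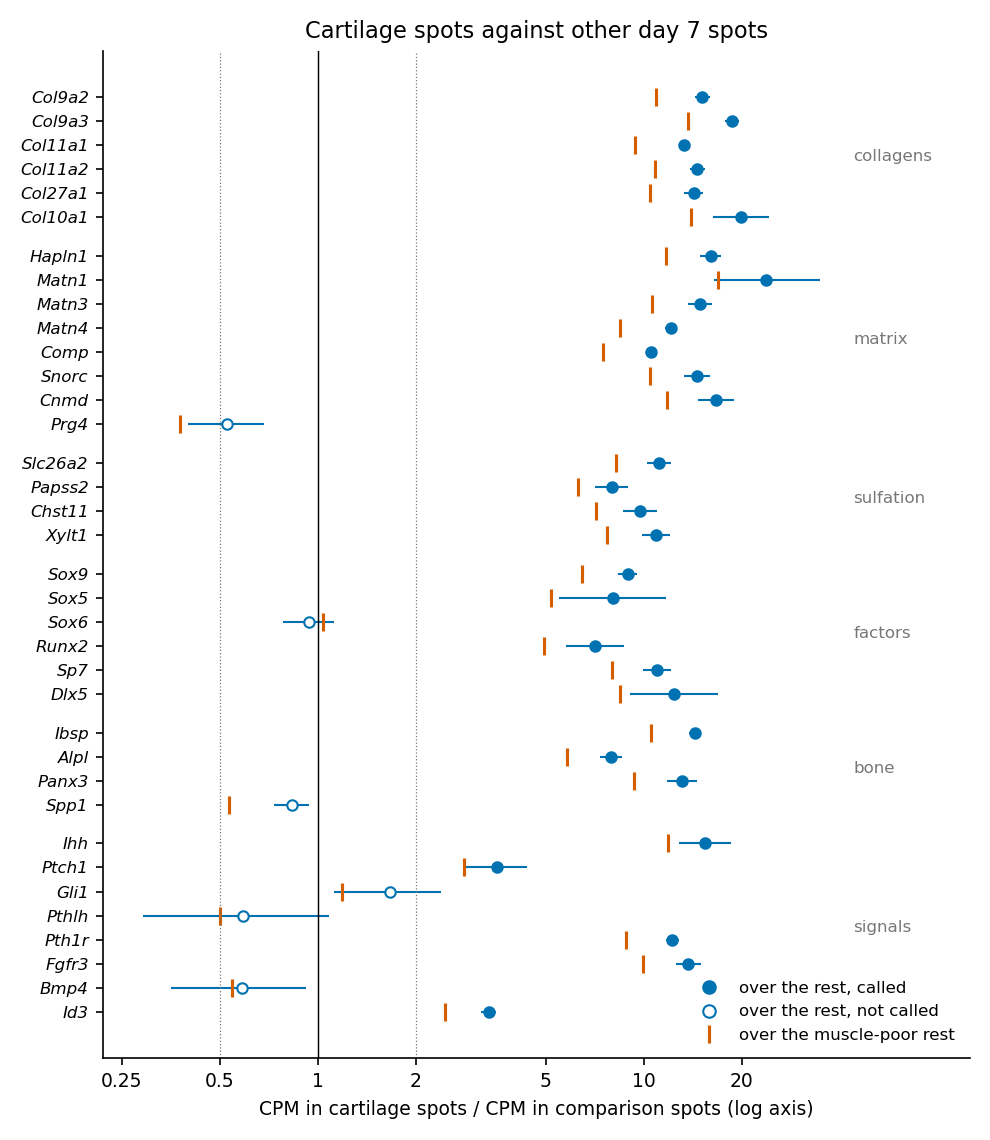
Ratio of CPM in the 266 cartilage spots over the 2682 rest spots (circles, with 95% counting intervals) and over the 1341 muscle-poor rest spots (orange bars) on a logarithmic axis, for 36 genes grouped by role, with dotted lines at the call limits of 0.5 and 2. Matn1 is highest at 23.8, while Sox6 (0.942), Prg4 (0.528), Spp1 (0.831), Pthlh (0.591) and Bmp4 (0.587) are open circles below 1, although Spp1 had UMIs in a larger share of cartilage spots (57.5%) than of the rest (27.6%).

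In the hedgehog and PTHrP pathway the ligand Ihh and the receptor Pth1r stood out. Ihh had UMIs in 130 cartilage spots (48.9%) and in 172 spots of the rest (6.41%), and a ratio of 15.4 (12.9 to 18.5). Thinned to 2000 UMIs a spot, the shares were 16.9% and 1.03%, beside 0.846% in the 266 spots richest in myofibre RNA (median depths 10781.5, 12512 and 11290.5 UMIs). Pth1r ranged from 0 to 74.7 UMIs per 10,000 with a median of 9.78 in cartilage spots, against 0 to 12.0 with a median of 0, and had a ratio of 12.2. Its ligand gene Pthlh had 11 UMIs in all cartilage spots and 205 in the rest, a ratio of 0.591 (0.29 to 1.08) that was not called. The hedgehog receptor and target Ptch1 had a ratio of 3.54 (2.84 to 4.38), and the other common readout of hedgehog signalling, Gli1, 1.66 (1.12 to 2.39), which was not called. Of 14 tested genes of the list 6 were called higher and 1 lower (5 and 3 with TMM factors).

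Of 23 tested BMP and GDF genes 7 were called higher and 2 lower (5 and 5 with TMM factors). The targets Id1, Id2 and Id3 had ratios of 2.83, 3.5 and 3.35 and Smad6, an inhibitor induced by the pathway, 3.29, while Bambi, a decoy receptor, had the highest, 7.53 (6.49 to 8.74). Bmp4 itself had 20 UMIs in the cartilage spots (5.76 CPM) and 375 in the rest (9.81 CPM), a ratio of 0.587 that was not called. Whether transcripts of the transgene, which ends in a viral polyadenylation signal, were counted as Bmp4 was not tested. Among receptors the ratio was 1.35 for Bmpr1a, 1.31 for Bmpr2 and 1.97 for Acvr1, and among antagonists 0.904 for Nog and 0.836 for Chrd, none of which was called.

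Fgfr3, the receptor that slows chondrocyte growth, was called higher at 316 against 23.1 CPM, a ratio of 13.7, as was Fgfr2 at 9.27, whereas Fgfr1 had 1.29 and was not called. Over the FGF and natriuretic peptide list, 3 of 16 tested genes were called higher and 2 lower (2 and 6 with TMM factors). In the Wnt list 8 of 15 were called higher and 3 lower (6 and 4 with TMM factors). The antagonist Frzb had a ratio of 9.58, Wnt10b 5.14, Sfrp2 3.54 and Wnt5b 3.76, while Wnt4 had 0.175 from 7 and 441 UMIs and the target Axin2 0.748, which was not called.

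Fibrous matrix genes were also high, with 17 of 22 called higher and none lower (15 and none with TMM factors). Col12a1 had a ratio of 10.1, Tnc 7.43, Col1a2 5.93 and Col1a1 5.29, while the fibroblast genes Dcn (0.940) and Fbn1 (0.985) were not called. Matrix proteases and their inhibitors gave 13 higher and 3 lower of 22, but 6 and 3 with TMM factors. Cell cycle genes gave 15 higher and none lower of 16 (12 and none with TMM factors), with Mki67 in 46.2% of cartilage spots and 13.8% of the rest and a ratio of 4.32 (3.63 to 5.12). Of 29 hypoxia and glycolysis genes 8 were called higher and 5 lower, and 5 and 13 with TMM factors. Hif1a, the oxygen-sensing factor, had 3.47, the glucose transporter Slc2a1 3.02 and Car12, a carbonic anhydrase, 10.1, whereas Gapdh, which is abundant in muscle, had 0.261.

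Marker lists of other cell types gave few higher calls. None of 12 monocyte and macrophage genes was called in either direction (2 lower with TMM factors), and their summed level had a median of 14.5 UMIs per 10,000 in cartilage spots and 13.1 in the rest. Endothelial genes gave no higher and 1 lower call of 12 (3 lower with TMM factors). Of 6 osteoclast genes 3 were called higher (1 higher and 1 lower with TMM factors), namely Mmp9, Ctsk and Itgb3, and the fusion gene Dcstamp had 1 UMI in the cartilage spots. Mesenchymal progenitor genes gave 2 higher and 4 lower of 14 (2 and 5 with TMM factors), with Dpp4 (0.303) and Clec3b (0.342) among the lower. Red cell and muscle genes were among those with the lowest ratios. Hba-a1 and Hbb-bs, of haemoglobin, had 0.172 and 0.187, the muscle genes Ppp1r3a, Cox7a1, Myh2 and Myh8 0.221, 0.234, 0.238 and 0.239, and Pdk4, Car3 and Ccl21a 0.248, 0.236 and 0.224. For Myh2 and Myh8 the highest values differed more than the share of spots with a UMI. Myh2 ranged from 0 to 13.7 UMIs per 10,000 in cartilage spots (median 0.887, 66.9% of spots) and from 0 to 139 in the rest (median 1.05, 69.9%), and Myh8 from 0 to 6.43 (42.5% of spots) and from 0 to 28.9 (40.2%). All 16 adult myofibre genes were called lower, also with TMM factors.

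Levels across 5 bands of the score showed what lay on either side of the threshold. The first bands ended at the 50th, 82nd and 91st percentiles, and the cartilage spots were divided at their median score. They held 1474, 943, 265, 133 and 133 spots. Col9a3 was higher in each band than in the one before, with 23.4, 77.5, 222, 604 and 2185 CPM, and all 5 cartilage collagen genes outside the score were highest in the last band. Sox9 had 19.6, 64, 162, 375 and 589 CPM and Sp7 8.24, 26.8, 66.5, 202 and 280, so both were already well above the lowest band outside the threshold. Col10a1 had 1.49, 6.36, 9.93, 16.1 and 191 CPM, and Ihh 1.77, 7.13, 18.5, 28.1 and 179. For this pair, as for Col9a3, the widest step was the one inside the cartilage spots. Another set was highest just inside the threshold. Postn, a matrix protein of periosteum and healing tissue, had 611, 1515, 2911, 3788 and 2307 CPM and Mmp9, the gelatinase of osteoclasts, 8.96, 8.43, 16.4, 51.6 and 13.1. Of 22 protease and inhibitor genes 13 were highest in the fourth band and 4 in the fifth, and of 22 fibrous matrix genes 9 and 9. The share of all genes highest in each band was not computed, so these counts do not set either list apart. The myofibre share was 19.3%, 15.7%, 12.0%, 5.78% and 5.10% across the bands, and the median depth was 12063.5, 12380, 15184, 15248 and 8552 UMIs, so the last band was also the shallowest.

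**Figure D3:**
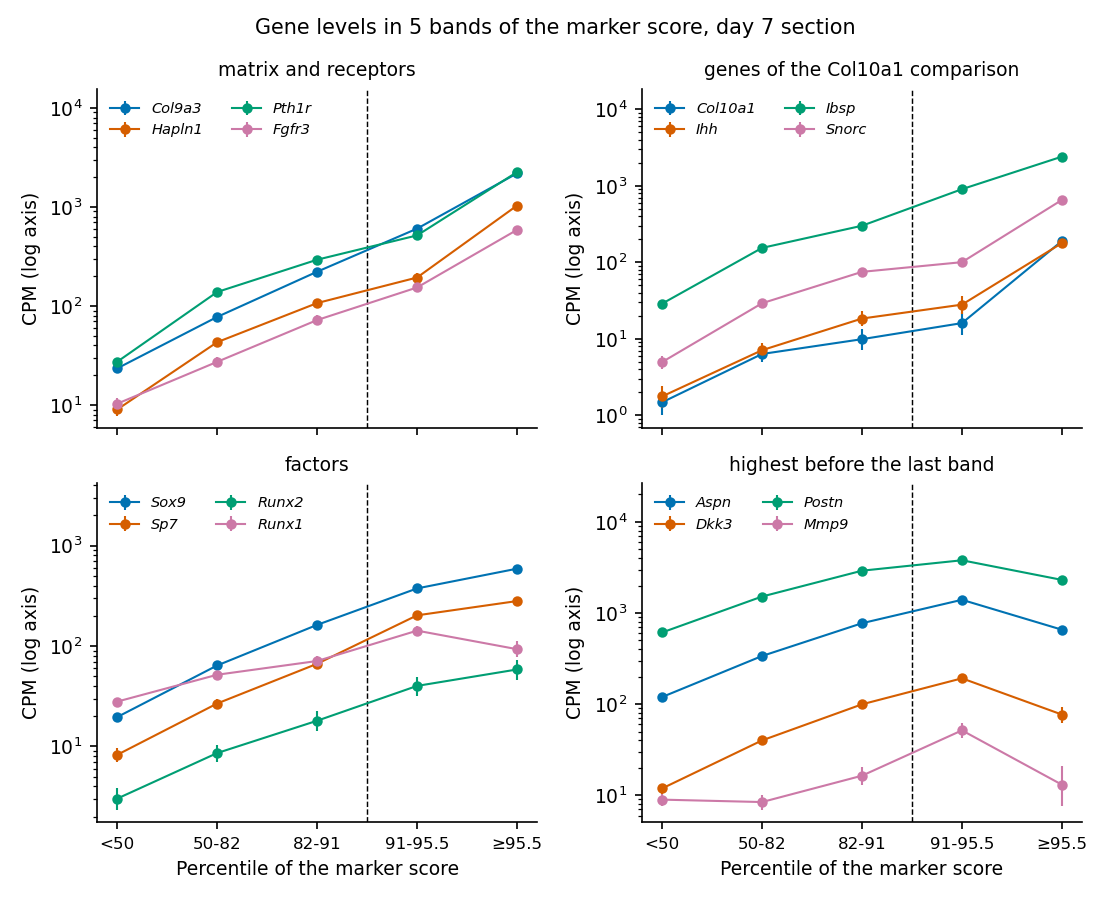
CPM (logarithmic axis, with 95% counting intervals, many smaller than the points) of 16 genes in 5 bands of the marker score (horizontal axis, percentiles of day 7 spots), with the cartilage spots to the right of the dashed line. Col10a1 goes from 16.1 to 191 CPM and Ihh from 28.1 to 179 CPM between the last 2 bands, while Aspn, Dkk3, Postn and Mmp9 are highest in the band just inside the line.

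Set against each other, the 133 cartilage spots with the higher scores and the 133 with the lower scores differed in 148 genes called higher (1.77%) and 146 called lower (1.74%) of 8376 tested, a comparison added after the data had been seen. The upper-score spots had more Col10a1 (191 against 16.1 CPM, ratio 11.8), Matn1 (11.5), Slc13a5 (8.80), Aldh1a3, which makes retinoic acid (8.54), Snorc (6.51), Ihh (6.38), Hapln1 (5.33), Pth1r (4.36), Smpd3 (4.01) and Fgfr3 (3.82). The factors had smaller ratios, of 1.57 for Sox9, 1.39 for Sp7 and 1.46 for Runx2, none of which was called. The lower-score spots had more Mmp9 (ratio 0.253), the tendon gene Tnmd (0.303), Acp5, the acid phosphatase of osteoclasts (0.366), Dkk3 (0.400), Csf1r, a macrophage receptor (0.459), and the fibrous matrix genes Aspn (0.470), Ogn (0.471) and Thbs2 (0.474). By list, 5 of 5 cartilage collagen genes and 5 of 11 matrix genes were called higher, 3 of 22 fibrous matrix genes and 3 of 8 tendon genes lower, and none of 16 cell cycle genes either way.

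Col10a1 divided the cartilage spots by presence. The median of the share Col10a1/(Col10a1 + Col2a1) was 0, because 174 cartilage spots had no Col10a1 UMI, so the 92 spots with at least 1 (34.6%) were compared with those 174. In the 92 the share ran from 0.386% to 15% with a median of 2.63%. The gene was sparse, with 283 UMIs in cartilage spots and 157 in 137 spots of the rest, and 45 of the 92 spots had a single UMI. In contrast 13 spots with 5 or more UMIs held 151 of them (53.4%), with 31 in the richest spot. Thinned to 2000 UMIs a spot, 12.9% of cartilage spots (9.02% to 17.4%), 0.856% of the rest and 0.282% of myofibre-rich spots kept a Col10a1 UMI. Of the upper-score spots 64 of 133 had Col10a1, and of the lower-score spots 28 of 133. The spots with Col10a1 therefore also had higher marker scores, a median of 117 against 59.3 per 10,000, and more Col2a1, 7726 against 3202 CPM, at a median depth of 10014 and 11498 UMIs. For this reason the comparison was repeated, after the data had been seen, within the upper-score spots (64 with and 69 without, median scores 147 and 118).

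Of 8377 genes tested between spots with and without Col10a1, 51 were called higher (0.609%) and 37 lower (0.442%). These counts depended on the settings, with 103 higher and 188 lower when the spots were split on thinned Col10a1 counts (38 against 228 spots), 182 and 86 with no filter beyond 3 UMIs, and 10 and 2 with at least 200 UMIs. Within the upper-score spots 23 of 4428 were called higher (0.519%) and 19 lower (0.429%). Of the 51 higher genes 8 were called again there and 49 had a ratio above 1, and of the 37 lower genes none was called again. The median log2 ratio of all genes tested there was -0.016. The upper-score spots are part of the spots on which the 51 genes were called. A ratio above 1 there is therefore partly given by that choice and is no independent support.

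Ihh and Ibsp were among the genes called higher with Col10a1. Ihh had UMIs in 60 of the 92 spots with Col10a1 (65.2%) and in 70 of the 174 without (40.2%), at 158 against 48.2 CPM, a ratio of 3.28 (2.58 to 4.19). Within the upper-score spots its ratio was 2.22. Ibsp ranged from 1.24 to 102 UMIs per 10,000 with a median of 18.6, against 0 to 56.4 with a median of 6.75, and had a ratio of 2.87 (2.71 to 3.03), and of 2.83 within the upper-score spots. This ratio changed little when the scores were closer. Aldh1a3 had a ratio of 3.36 (2.71 to 4.18), Slc13a5 3.23, Cgref1 2.78 and Eps8l2, an actin regulator, 2.22, and within the upper-score spots 2.04, 2.01, 2.43 and 2.09, all called. Other named genes lost the call there, some with ratios little under the limit of 2. The call does not separate these from kept ratios of 2.01 and 2.04, and scaling factors were not computed within the upper-score spots. Snorc went from 2.73 to 1.88, Pth1r from 2.44 to 1.73, Sgms2, a sphingomyelin synthase, from 2.40 to 1.76 and Pcsk6, a proprotein convertase, from 2.46 to 1.89. Hapln1 went from 2.09 to 1.36 and Matn1 from 2.55 to 1.49. Among the genes called higher only within the upper-score spots were Ptch1 (1.95 and 2.43), Alpl (1.78 and 2.03) and Cdkn1c, a cell cycle inhibitor (1.76 and 2.01). Such calls were not confined to maturation genes. Within the upper-score spots 2 of 7 tested smooth muscle and pericyte genes and 1 of 7 endothelial genes were called higher. In all cartilage spots none of 8 and none of 12 were. The lower calls with at least 50 CPM were Phkg1, a muscle kinase subunit (0.433), and Atl2, which shapes the endoplasmic reticulum (0.499).

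None of 11 tested chondrogenic transcription factors was called between spots with and without Col10a1. Sox9 had a median of 3.83 UMIs per 10,000 with Col10a1 and 3.99 without, and a ratio of 1.05, and within the upper-score spots 0.76. Runx2 had UMIs in 41.3% and 40.8% of spots, and Sp7 had a ratio of 1.13. Mmp13 had UMIs in 18.5% of spots with Col10a1 and in 4.02% of spots without, from 34 UMIs in all, too few to be tested. None of 22 fibrous matrix genes, 16 cell cycle genes, 16 protease genes or 35 secretory genes was called in either direction. Of all genes tested in this comparison only 0.609% were called higher and 0.442% lower. At those shares lists of this size, the transcription factors included, would hold few calls or none, so their absence does not set these lists apart.

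**Figure D4:**
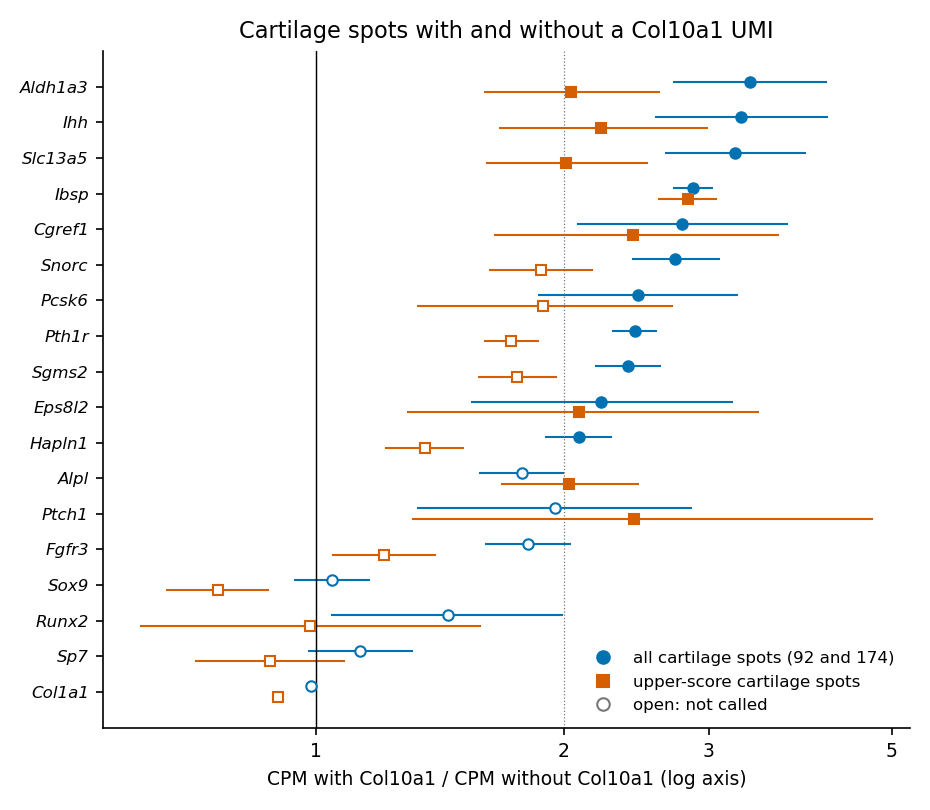
Ratio of CPM in cartilage spots with a Col10a1 UMI over those without (logarithmic axis, 95% counting intervals, open symbols not called), for all cartilage spots (circles, 92 and 174 spots) and for the upper-score cartilage spots (squares, 64 and 69 spots). Ibsp keeps its ratio (2.87 and 2.83), Alpl and Ptch1 are higher within the upper-score spots, most others are closer to 1 there, and Sox9, Runx2, Sp7 and Col1a1 are called in neither.

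The 250 bases before the start of Col10a1, Ihh and Ibsp are given because Col10a1 divided the cartilage spots and Ihh and Ibsp were called higher both in all cartilage spots with Col10a1 and within the upper-score ones (RefSeq, build GRCm38.p6, each read along the strand of its gene). The windows lie at chr10:34389731-34389980 on the plus strand for Col10a1, at chr1:74951673-74951922 on the minus strand for Ihh and at chr5:104299037-104299286 on the plus strand for Ibsp. Capitals mark matches, on either strand, to TGTGGT, the core letters bound by Runx factors, to CATTGT, the core letters bound by Sox factors, and to TATAAA, the TATA box, the last searched after the first 2 had been counted. None of these matches overlaps another.
Col10a1: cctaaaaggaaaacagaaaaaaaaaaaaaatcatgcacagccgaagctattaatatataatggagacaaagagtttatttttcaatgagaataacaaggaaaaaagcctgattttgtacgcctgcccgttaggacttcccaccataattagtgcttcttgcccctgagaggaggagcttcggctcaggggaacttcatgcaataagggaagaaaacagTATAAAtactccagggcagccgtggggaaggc
Ihh: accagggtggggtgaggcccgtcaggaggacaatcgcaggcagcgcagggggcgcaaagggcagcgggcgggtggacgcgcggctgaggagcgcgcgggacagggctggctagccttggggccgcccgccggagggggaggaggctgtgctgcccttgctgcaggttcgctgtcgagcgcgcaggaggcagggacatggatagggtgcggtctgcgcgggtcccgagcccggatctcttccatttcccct
Ibsp: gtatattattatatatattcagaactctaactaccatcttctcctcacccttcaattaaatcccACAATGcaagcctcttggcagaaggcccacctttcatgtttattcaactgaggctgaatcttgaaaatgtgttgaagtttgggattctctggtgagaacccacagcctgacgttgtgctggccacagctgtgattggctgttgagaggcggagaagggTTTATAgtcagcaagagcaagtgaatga
The Runx letters were found in none of the 3 windows and in 14.0% of 32851 promoter windows of the same length. The Sox letters were found once, in that of Ibsp, starting 186 bases before its start, and in 10.7% of all windows. TATAAA began 32 bases before the start of Col10a1 and, on the opposite strand, 28 bases before that of Ibsp, was not found for Ihh, and was found in 12.4% of all windows. A match is a description of the letters only, and absence says only that these letters are not in the window.

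The cartilage spots were also compared with spots outside them that were chosen on bone genes or on tendon genes. The bone-gene spots were the 242 rest spots in the top 9% of the bone-gene score and the tendon-gene spots the 242 in the top 9% for Tnmd, Scx, Mkx, Thbs4 and Kera, and 24 spots were in both. The genes of a score were left out of its comparison. The bone-gene spots were poorer in bone genes than the cartilage spots, so they are no bone-rich reference. Thinned to 2000 UMIs a spot, Ibsp was found in 59.8% of them and in 81.5% of cartilage spots. The shares were 14.9% and 37.8% for Sp7, 25.1% and 42.5% for Alpl and 3.60% and 9.17% for Runx2. Against bone-gene spots 674 of 10334 genes were called higher (6.52%) and 355 lower (3.44%), and 367 and 572 with TMM factors. Against tendon-gene spots 847 of 10489 were called higher (8.08%) and 506 lower (4.82%), and 617 and 705 with TMM factors.

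The bone-gene spots were themselves close to cartilage, with a median marker score of 12.6 per 10,000, and the same cartilage genes were still higher in the cartilage spots. Col10a1 had 81.5 against 9.77 CPM, a ratio of 8.34 (5.88 to 12.1). Col9a3 had a ratio of 7.01, Itga10, a collagen receptor of chondrocytes, 6.76, Dqx1 6.24, Gramd2 6.17, Col27a1 6.07, Col11a2 5.82 and Smpd3 5.79. All 5 cartilage collagens and 9 of 14 matrix genes were called higher, also with TMM factors, as were 10 of 13 sulfation genes (9 with TMM factors). Sox9 had a ratio of 3.03, while Col1a1 had 2.05, and 5 of 22 fibrous matrix genes were called higher (3 with TMM factors). Cell cycle genes gave 10 higher of 16, and 5 with TMM factors. The lowest ratios ran from 0.215 for Hba-a1 to 0.328 for Hba-a2, with Ccl21a, Dupd1, Hbb-bs, Trdn, Cd55 and Nctc1 between. They were again mostly of blood and muscle genes, but Ccl21a and Cd55 are neither. The bone-gene spots held 12.4% and the tendon-gene spots 11.5% myofibre RNA.

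Against tendon-gene spots the ratios were wider, 17.7 (11.0 to 30.3) for Col10a1, 13.8 for Ihh, 12.5 for both Hapln1 and Col9a3, 12.4 for Slc13a5, 11.8 for both Ibsp and Col9a2 and 11.7 for Smpd3. All 5 cartilage collagen genes were called higher, while the matrix list was split, with 9 higher and 5 lower of 16. The lower 5 were Chad (0.219), Prg4 (0.134), Cilp (0.31), Cilp2 (0.06) and Vit (0.33). Of the genes chosen for the lowest ratios, with at least 50 CPM in the tendon-gene spots, Angptl7 had the lowest, 0.0366 from 11 and 339 UMIs. It was followed by Col22a1, the collagen of muscle and tendon junctions (0.0843), Prg4, Myl2 (0.143), Myh7 (0.150), Fbxl22 (0.203) and Myh2 (0.212). Monocyte and macrophage genes gave 1 lower call of 12, and 8 with TMM factors.

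**Figure D5:**
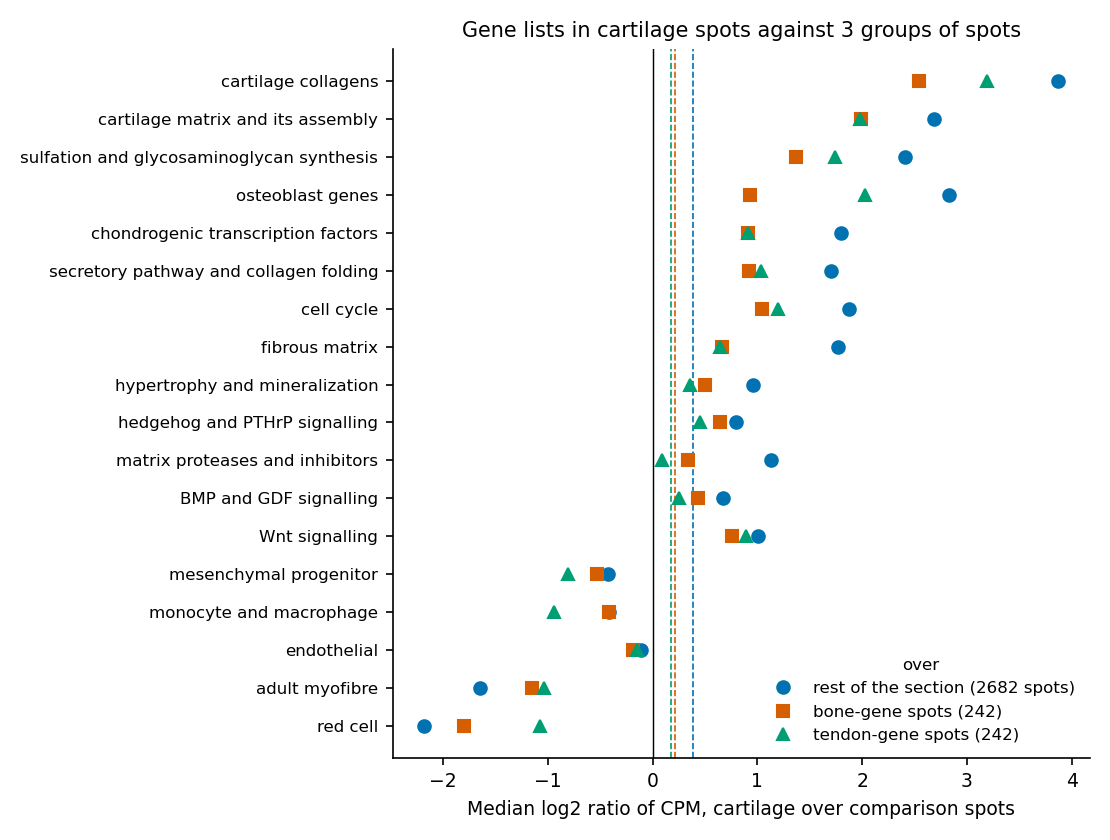
Median over the tested genes of each list of the log2 ratio of CPM, cartilage spots over the rest of the section (circles), over bone-gene spots (squares) and over tendon-gene spots (triangles), with dashed lines at the median of all genes tested (0.39, 0.22 and 0.17). Cartilage collagens stand at 3.87, 2.54 and 3.19, while monocyte and macrophage, endothelial, adult myofibre and red cell lists lie below 0 in all 3 comparisons.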

How the data were processed

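The deposited matrices hold UMI counts per gene and spot, made by the authors with Space Ranger on build mm10 and not normalized. The file headers name version 1.2.0, while the labels describe Cell Ranger 5.0.0. Spot positions and images were not used here. All 4 sections were read, and no column of per-sample values was left unused. Of 3032 day 7 spots, 84 with under 2000 UMIs were left out. The 32285 features gave 32245 symbols, and the 40 duplicated symbols were summed. Depth in the kept day 7 spots ran from 2019 to 74031 UMIs.

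UMIs were summed over the spots of each group and compared as CPM ratios. Intervals are exact Clopper-Pearson 95% intervals of a gene's share between the groups, given both totals, and cover counting error only. Spots of 1 section are not replicates, so there was no test. Fewer than 3 UMIs in a group were entered as 3. TMM factors came from edgeR 4.0.16 and size factors from DESeq2 1.42.0 (R 4.3.3), neither of which was used for a test. Other steps ran in Python 3.11.15 with SciPy 1.17.1 for intervals, pandas 2.3.3 for tables and NumPy 2.4.6, and figures were drawn with matplotlib 3.10.9. Shares of spots were the mean of 20 thinning draws. The ratio code was tested on simulated data.

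Named genes were those of 28 lists (437 symbols) and, among called genes with at least 50 CPM in the higher group, the 15 highest and 10 lowest ratios against the rest, the 10 highest and 10 lowest of the Col10a1 comparison and the 8 highest and 8 lowest against bone-gene and tendon-gene spots, without mitochondrial, ribosomal protein and score genes. One gene of the bone-gene score and 1 gene that the rule for the lowest ratios selects are not reported here. The members and lists were chosen with earlier results of these data known. The muscle-poor and upper-score comparisons and the TATAAA search were added after seeing the data. Doublets have no meaning for spots and were not called. Promoter sequences came from RefSeq, build GRCm38.p6.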

Additional observations from a re-analysis of the deposited data

How the results depend on the processing

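No paired analysis was possible because each day had 1 section and no test was run. Of 119 alternative counts and shares 79 stayed within 1.5 times the value given or its interval and 40 moved further. A count or share has no direction that could reverse. The balance of calls did change: against the rest, 2795 higher and 971 lower became 1282 and 1963 with TMM factors. The 69 ratios of genes named for their size moved beyond their interval in 281 of 958 alternatives and reversed in none. These genes were chosen as called, with ratios of at least 2 or at most 0.5. The alternatives reused mostly the same spots, so a reversal was unlikely from the start and its absence is no evidence of stability. With totals free of mitochondrial, haemoglobin and myofibre genes, 1467 genes were called higher and 1758 lower against the rest, 368 and 570 against bone-gene spots, and 556 and 793 against tendon-gene spots. TMM factors gave 1282 and 1963 against the rest and 367 and 572 against bone-gene spots. DESeq2 factors gave 1282 and 1968 against the rest, 386 and 543 against bone-gene spots and 764 lower against tendon-gene spots. The muscle-poor rest gave 1572 higher. With at least 200 UMIs required, the Col10a1 comparison gave 10 higher and 2 lower, the bone-gene comparison 294 and 197 and the tendon-gene comparison 415 and 262. With no filter beyond 3 UMIs the Col10a1 comparison gave 182 and 86, and with each spot weighted equally 64 lower. Setting the score threshold at the 85th percentile gave 505 lower against the rest, 101 higher in the Col10a1 comparison, and 107 and 212 lower against bone-gene and tendon-gene spots. At the 95th percentile the Col10a1 comparison gave 19 and 14 and the bone-gene comparison 326 higher. A score without Acan gave 391 higher and 144 lower against bone-gene spots. Splitting on thinned Col10a1 counts gave 103 higher and 188 lower, and the upper-score spots gave 23 and 19. Thinned to 4000 UMIs, 20.9% of cartilage spots kept a Col10a1 UMI. The summed level of 10 cartilage genes outside the score (Col9a2, Col9a3, Col11a1, Col11a2, Hapln1, Matn1, Matn3, Sox9, Snorc and Cnmd) was 7.37 times as high in the top band as in the band just below the threshold, and 7.07 times after thinning. The causes were not tested. Depth limits the Col10a1 comparison, since 45 of its 92 spots rest on 1 UMI.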

Other observations

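Among the 51 genes called higher in cartilage spots with a Col10a1 UMI were 7 interferon-induced genes (Cxcl10, Ifit3, Ifit1, Rsad2, Isg15, Igtp and Tap1), grouped after their values were seen. Together they had 278 UMIs in 58 of the 92 spots with Col10a1 and 197 UMIs in 95 of the 174 spots without, or 242 and 84.8 CPM, beside 124 CPM in the rest of the section. The ratio was 2.85. It was bound to be at least 2, since only interferon-induced genes called higher were summed, and those not called were left out. In the spots with Col10a1, 149 of the 278 UMIs lay in 3 spots. With these left out on that side only, the ratio was 1.39.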
